A study of Mus musculus with 6 samples.

Results

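The genes of the translation initiation factors were taken from an RNA-seq table of mouse bone marrow-derived macrophages (BMDMs), which are macrophages grown in culture from bone marrow cells. Members were the rows whose symbol began with Eif1 to Eif6, without the eIF2 kinases (symbols beginning with Eif2ak) and without rows marked as pseudogenes. This gave 54 of the 55291 rows in the table. Poly(A) RNA was sequenced from 3 libraries of BMDMs pretreated with apoptotic cells, labelled AC, and from 3 libraries of BMDMs without that treatment. The labels name the cells as BMDM and give no strain, age, dose, or time of treatment, and no source for the apoptotic cells. Whether a replicate is another culture or another animal is not stated, and each p-value therefore reflects the scatter of these libraries alone, part of which may be technical.

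Initiation factors bring the initiator tRNA, the small ribosomal subunit and the capped mRNA together and release the large subunit to join them at the start codon. eIF2 carries the initiator tRNA in its GTP-bound form, eIF2B recharges eIF2 with GTP, and eIF3 is the large scaffold on the small subunit. eIF4E binds the mRNA cap, eIF4G links it to the helicase eIF4A, and the 4E-binding proteins compete with eIF4G for eIF4E. In macrophages, phosphorylation of eIF2 and of the 4E-binding proteins is known to set how much of which mRNA is translated during stress and inflammatory activation. These controls act largely on protein, and the values here are transcript levels.

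Levels are in TPM, in which each library sums to 1000000 after division by gene length, so that genes can be compared. A difference is that of AC pretreated minus untreated means of log2(TPM + 1), from limma across all genes that reached 1 TPM or more in 3 or more libraries, and a gene passed at a Benjamini-Hochberg adjusted p under 0.05 over all 12603 genes tested. In bulk RNA, fewer cells that express a gene and less RNA per cell cannot be told apart. Depth was 19042049 to 32212701 reads per library, recovered from the deposited values over genes with a matched length. All 10 macrophage markers were present, with Adgre1 at 1641 to 2633 TPM and Csf1r at 834 to 1288 TPM over the 6 libraries. The T cell marker Cd3d and the epithelial marker Epcam were at 0 in every library, but other genes of their lists were not. Cd4 had 9.48 to 16.8 TPM, and Trbc2 reached 1.69 TPM in AC pretreated replicate 2. Krt8 and Krt18 reached 2.17 and 2.24 TPM. Summed over each list, T cell markers reached 9.87 to 17.3 TPM, B cell markers 2.51 to 4.21 TPM, neutrophil markers 20.1 to 46.3 TPM, erythroid markers 0.065 to 17.5 TPM, epithelial markers 0.650 to 4.70 TPM and fibroblast markers at most 0.775 TPM. Of 11 placental markers, 7 reached 1 TPM in some library, and their sum was 27.4, 127 and 0 TPM in AC pretreated replicates 1 to 3, against 13.9, 29.2 and 0 TPM in untreated replicates 1 to 3. The small RNA gene Gm23935 stood at 73936 TPM in AC pretreated replicate 3, against 9648 to 13452 TPM in the other 5 libraries, and the macrophage gene Lyz2 at 83.7 TPM in untreated replicate 1, against at least 9270 TPM elsewhere. The part of these library differences in the results below was not tested, except where a value without the library is given.

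Of the 54 members, 49 were tested. Eif4a3l1, Eif4e1b (the germline relative of eIF4E) and Eif2c5 were at 0 in every library. Eif2c5 is annotated as a noncoding RNA and was taken in by its symbol alone. Eif4a3l2, a copy of Eif4a3, reached at most 0.215 TPM. Eif3j2, a second gene for the loosely bound eIF3 subunit eIF3j, had 7 to 30 reads per library and reached 1.51 TPM in AC pretreated replicate 3. The 4 members below 1 TPM in every library and Eif3j2 did not reach the level needed for the test.

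No initiation factor gene differed between AC pretreated and untreated BMDMs beyond the spread between libraries. By limma, 0 of 49 members passed, and so did 0.0% of all 12603 genes. Every adjusted p of a member was 1.0 to the precision printed. At an unadjusted p under 0.05 there were 0 of 49 members, against 1.30% of all genes (164 genes). Means were lower in AC pretreated BMDMs for 41 of 49 members (83.7%) and for 70.6% of all genes tested. The median log2 difference was -0.10 over the members, and -0.07 over all genes, so a shift to lower means of similar size ran through the whole table. With median-of-ratios scaling, lower means were 34 of 49 members (69.4%) and 52.6% of all genes, and after leaving out the small RNA gene Gm23935 they were 37 members (75.5%) and 62.2% of all genes. Member differences ran from -0.53 for Eif4ebp3 to 0.06 for Eif1ax. The 95% interval of the difference lay inside 1.5-fold in either direction for 40 members (81.6%), against 46.1% of all genes, and inside 2-fold for 47 members (95.9%), against 87.4%. All members together made up between 0.505% and 0.558% of the TPM of a library. Their summed level was 5342, 5344 and 5051 TPM in AC pretreated BMDMs, against 5585, 5511 and 5577 TPM in untreated BMDMs.

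**Figure D1:**
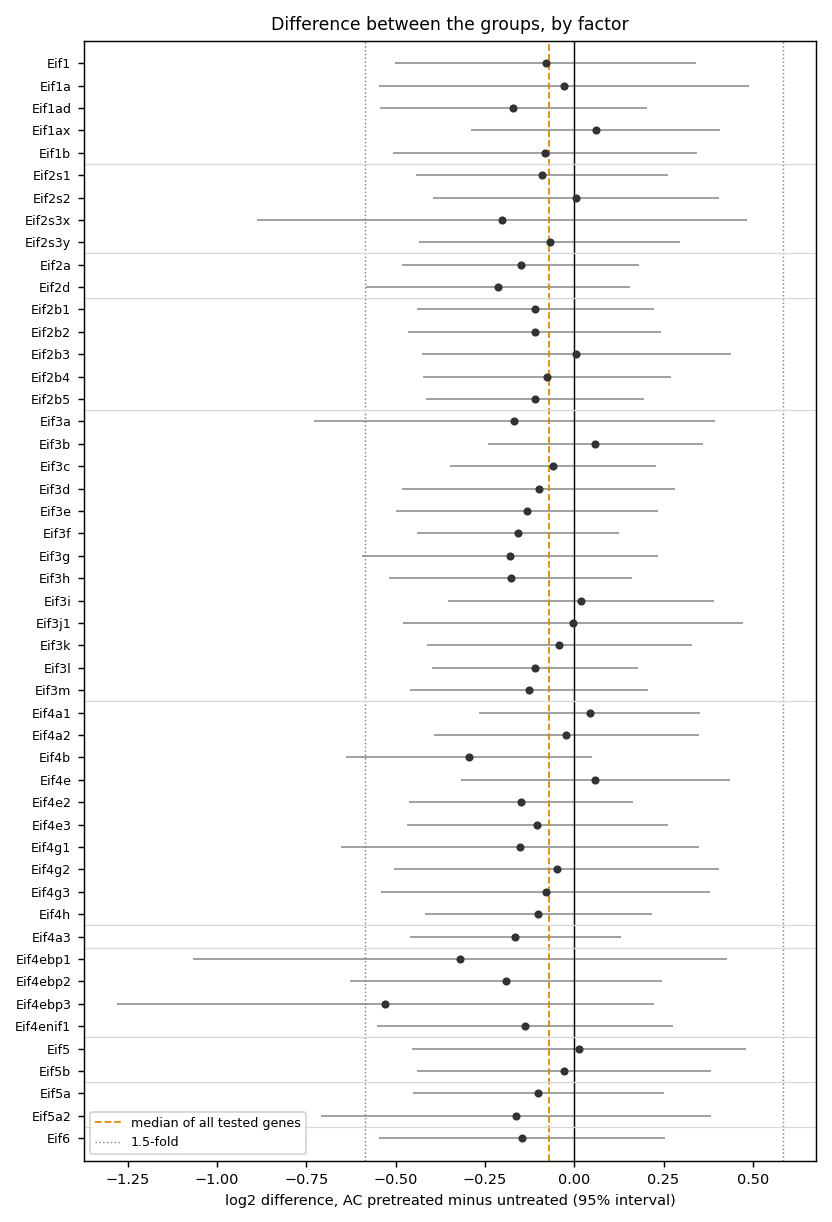
Log2 difference, AC pretreated minus untreated, for each of the 49 tested initiation factor genes in the order of the factors, with 95% limma intervals (3 libraries per group). Every interval includes 0, the dashed line marks the median of all tested genes at -0.07, and the dotted lines mark 1.5-fold.

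The 2 members whose groups did not overlap were Eif3f and Eif4a3, both lower in AC pretreated BMDMs. Across all tested genes, 3.48% had groups that did not overlap with AC pretreated BMDMs lower, and 0.936% with AC pretreated BMDMs higher. No member was in the second class. Under median-of-ratios scaling both genes overlapped, AC pretreated replicate 1 being above every untreated library for each. Eif4b then became the member that was apart and lower, and Eif3b the member that was apart and higher. At that scaling, 1.94% of all tested genes were apart and lower, and 1.91% apart and higher. The eIF3 subunit gene Eif3f had 265, 231 and 233 TPM in AC pretreated BMDMs, against 270.2, 274 and 268 TPM in untreated BMDMs. The untreated libraries lay within a narrow band, and AC pretreated replicate 1 came close to it. The log2 difference of Eif3f was -0.16 ± 0.12 (SE), with an unadjusted limma p of 0.236. Eif4a3, a helicase of the eIF4A family that works in the exon junction complex, had 121, 116 and 104 TPM in AC pretreated BMDMs, against 136, 125 and 122 TPM in untreated BMDMs. The highest AC pretreated library came within 2 TPM of the lowest untreated one. Its log2 difference was -0.16 ± 0.13 (SE), with an unadjusted limma p of 0.234.

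The sequences around the transcription starts of these 2 genes are shown with those of Eif4b, the member with the smallest p, and of the X- and Y-linked pair Eif2s3x and Eif2s3y, which encode the same eIF2 subunit. Each runs 5′ to 3′ on the strand of the gene, from 70 bases before to 20 bases after the RefSeq start in build GRCm38.p6. Capitals mark matches on either strand to the ETS core CGGAAG, to the E-box with the letters CACGTG, or to the core of a cAMP response element, TGACG. Eif3f lies at chr7:108934345-108934434 (plus strand), Eif4a3 at chr11:119300024-119300113 (minus strand) and Eif4b at chr15:102073703-102073792 (plus strand). Eif2s3x lies at chrX:94212632-94212721 (minus strand) and Eif2s3y at chrY:1010525-1010614 (plus strand).
Eif3f: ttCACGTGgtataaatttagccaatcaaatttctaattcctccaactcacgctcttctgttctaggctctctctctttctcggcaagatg
Eif4a3: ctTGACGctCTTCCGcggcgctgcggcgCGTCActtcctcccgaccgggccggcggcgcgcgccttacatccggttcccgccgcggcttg
Eif4b: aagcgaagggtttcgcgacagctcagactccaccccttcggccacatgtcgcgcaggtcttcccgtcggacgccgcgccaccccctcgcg
Eif2s3x: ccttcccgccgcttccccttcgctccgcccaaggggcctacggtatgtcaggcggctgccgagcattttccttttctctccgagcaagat
Eif2s3y: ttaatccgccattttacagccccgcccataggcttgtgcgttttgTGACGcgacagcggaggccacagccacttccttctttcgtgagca

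These motifs were counted over the whole RefSeq promoter entry of 300 bases (250 before and 50 after the start), in which 41 of 54 members had a match by symbol. The ETS core was in 20 of 41 member promoters (48.8%), against 17.2% of 27025 promoters of the same length. The E-box was in 8 (19.5%), against 7.24%. The response element core was in 19 (46.3%), against 21.02%. The 27025 promoters include those of noncoding genes, and a match is a run of letters, not a bound site. Each motif contains the letters CG, and the promoters were not matched for CG content or for expression.

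Eif1 encodes the factor that holds the scanning ribosome open and helps it choose the start codon, and it had the highest level of all members by merged exon length (Eif4a1 by the length of the longest coding transcript). Eif1 had 603, 468 and 376 TPM in AC pretreated BMDMs, against 481, 538 and 485 TPM in untreated BMDMs. AC pretreated replicates 1 and 3 were the highest and lowest of the 6 libraries, with all untreated libraries between them. The log2 difference was -0.08 ± 0.18 (SE; 95% interval -0.50 to 0.34). Its close relative Eif1b followed it from library to library, with an Eif1b to Eif1 ratio of 0.255, 0.268 and 0.250 in AC pretreated BMDMs, against 0.270, 0.252 and 0.252 in untreated BMDMs.

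eIF1A, which works beside eIF1, is encoded by Eif1a and the X-linked Eif1ax. Eif1a had 55.8, 88.9 and 83.1 TPM in AC pretreated BMDMs, against 67.1, 66.6 and 97.97 TPM in untreated BMDMs (log2 difference -0.03 ± 0.23, SE). Eif1ax had 25.2, 26.6 and 24.9 TPM in AC pretreated BMDMs, against 22.2, 23.4 and 28.3 TPM in untreated BMDMs, a log2 difference of 0.06 ± 0.15 (SE; unadjusted limma p of 0.702). This was the highest difference of all members, and the untreated range enclosed all 3 AC pretreated values. Reads of Eif1a and Eif1ax, and of other close copies, could be split between the genes by the counting.

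eIF2 is built from alpha, beta and gamma subunits. Eif2s1, the alpha subunit that the eIF2 kinases phosphorylate, had 57.6, 63.7 and 54.5 TPM in AC pretreated BMDMs, against 55.5, 59.3 and 73.5 TPM in untreated BMDMs (log2 difference -0.09 ± 0.15, SE; 95% interval -0.44 to 0.26). Eif2s2, the beta subunit, had 54.8, 68.2 and 47.1 TPM in AC pretreated BMDMs, against 49.6, 56.2 and 62.7 TPM in untreated BMDMs (log2 difference 0.00 ± 0.17, SE; 95% interval -0.40 to 0.41). The groups overlapped for both genes.

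The gamma subunit, which binds the initiator tRNA and GTP, has an X-linked and a Y-linked gene in the mouse. Eif2s3x had 15.2, 27.0 and 37.2 TPM in AC pretreated BMDMs, against 30.6, 23.7 and 32.9 TPM in untreated BMDMs. Its AC pretreated libraries thus spanned 2.44-fold and enclosed all untreated values (log2 difference -0.20 ± 0.30, SE; 95% interval -0.89 to 0.49). Eif2s3y had 40.9, 56.3 and 47.0 TPM in AC pretreated BMDMs, against 45.9, 51.0 and 53.5 TPM in untreated BMDMs (log2 difference -0.07 ± 0.16, SE; 95% interval -0.44 to 0.30). The Y-linked gene was above the X-linked gene in every library, with a ratio of 1.26 to 2.68 in AC pretreated BMDMs and 1.496 to 2.15 in untreated BMDMs, and Xist, the RNA that silences an X chromosome in female cells, was at most 0.033 TPM. How reads that match both genes were handled is not given, so the split between the copies is uncertain.

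The 5 eIF2B subunits summed to 221, 199 and 184 TPM in AC pretreated BMDMs, against 224, 226 and 198 TPM in untreated BMDMs. Eif2b5, the catalytic epsilon subunit, had 56.1, 54.7 and 53.0 TPM in AC pretreated BMDMs, against 60.3, 63.6 and 53.4 TPM in untreated BMDMs. Its lowest untreated library lay among the AC pretreated ones, and its log2 difference was -0.11 ± 0.13 (SE; 95% interval -0.41 to 0.20). Eif2b2, the beta subunit, was the most abundant at 71.2 to 97.4 TPM, and Eif2b3, the gamma subunit that pairs with epsilon, the least abundant at 4.08 to 5.30 TPM. The summed ratio of eIF2B to eIF2 averaged 1.08 ± 0.21 in AC pretreated BMDMs and 1.105 ± 0.19 in untreated BMDMs (SD, n = 3 each; exact permutation test, 2-sided, p = 1.0).

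eIF2A and eIF2D are separate proteins that can deliver tRNA to the ribosome without eIF2. Eif2d had 11.7, 10.4 and 10.4 TPM in AC pretreated BMDMs, against 13.9, 12.9 and 11.6 TPM in untreated BMDMs. AC pretreated replicate 1 was just above untreated replicate 3, so the groups touched, and the log2 difference was -0.21 ± 0.16 (SE; unadjusted limma p of 0.219). Eif2a had 25.5, 30.4 and 25.1 TPM in AC pretreated BMDMs, against 29.7, 29.1 and 31.0 TPM in untreated BMDMs. Their sum was 37.2, 40.9 and 35.4 TPM in AC pretreated BMDMs, against 43.6, 41.96 and 42.6 TPM in untreated BMDMs, with no overlap at this scaling.

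eIF3 has 12 core subunits and the loosely bound eIF3j. Of its 14 genes, 13 were tested, and 11 of these had a lower and 2 a higher mean in AC pretreated BMDMs (8 lower and 5 higher with median-of-ratios scaling), with 0 passing. Summed eIF3 was 1794, 1779 and 1653 TPM in AC pretreated BMDMs, against 1894, 1854 and 1851 TPM in untreated BMDMs. All 3 AC pretreated sums were below all 3 untreated sums, whereas with median-of-ratios scaling AC pretreated replicate 1 had the highest sum of the 6 libraries and the ratio of the means was 0.985. The means were 1742 ± 77.3 and 1867 ± 23.9 TPM (SD, n = 3 each, AC pretreated and untreated BMDMs), a ratio of 0.933. Eif3h had the most TPM in the sum, at 450.0, 427 and 335 TPM in AC pretreated BMDMs, against 466, 442 and 453 TPM in untreated BMDMs.

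The core scaffold subunits of eIF3 are encoded by Eif3a, Eif3b and Eif3c. Eif3a had 69.9, 111 and 140.0 TPM in AC pretreated BMDMs, against 117, 102 and 130.3 TPM in untreated BMDMs. Replicate 1 of the AC pretreated libraries lay far below the rest (log2 difference -0.17 ± 0.24, SE; 95% interval -0.73 to 0.39). Eif3b had 158, 174 and 193 TPM in AC pretreated BMDMs, against 175, 161 and 166 TPM in untreated BMDMs, and its mean was higher in AC pretreated BMDMs by 0.06 ± 0.13 on the log2 scale (SE; unadjusted limma p of 0.665). Eif3c varied least of all members, by 1.17-fold over the 6 libraries, with 192, 205 and 218 TPM in AC pretreated BMDMs, against 218, 224 and 199 TPM in untreated BMDMs. Its log2 difference was -0.06 ± 0.13 (SE; 95% interval -0.35 to 0.23).

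Eif3e, which holds the outer part of eIF3 to the core, had 66.2, 78.6 and 55.3 TPM in AC pretreated BMDMs, against 69.5, 70.6 and 77.4 TPM in untreated BMDMs (log2 difference -0.13 ± 0.16, SE; 95% interval -0.50 to 0.24). The other subunit genes, Eif3d, Eif3g, Eif3i, Eif3j1, Eif3k, Eif3l and Eif3m, had overlapping groups. Although the core subunits are found in equal numbers in the complex, transcript levels differed 8.43-fold between Eif3h and Eif3d when each gene was divided by its merged exon length. With the length of the longest coding transcript the same spread was 4.01-fold, an alternative chosen after the data were seen. Eif3d shares 43.3% of its exon length with another gene and its reads could be split.

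**Figure D2:**
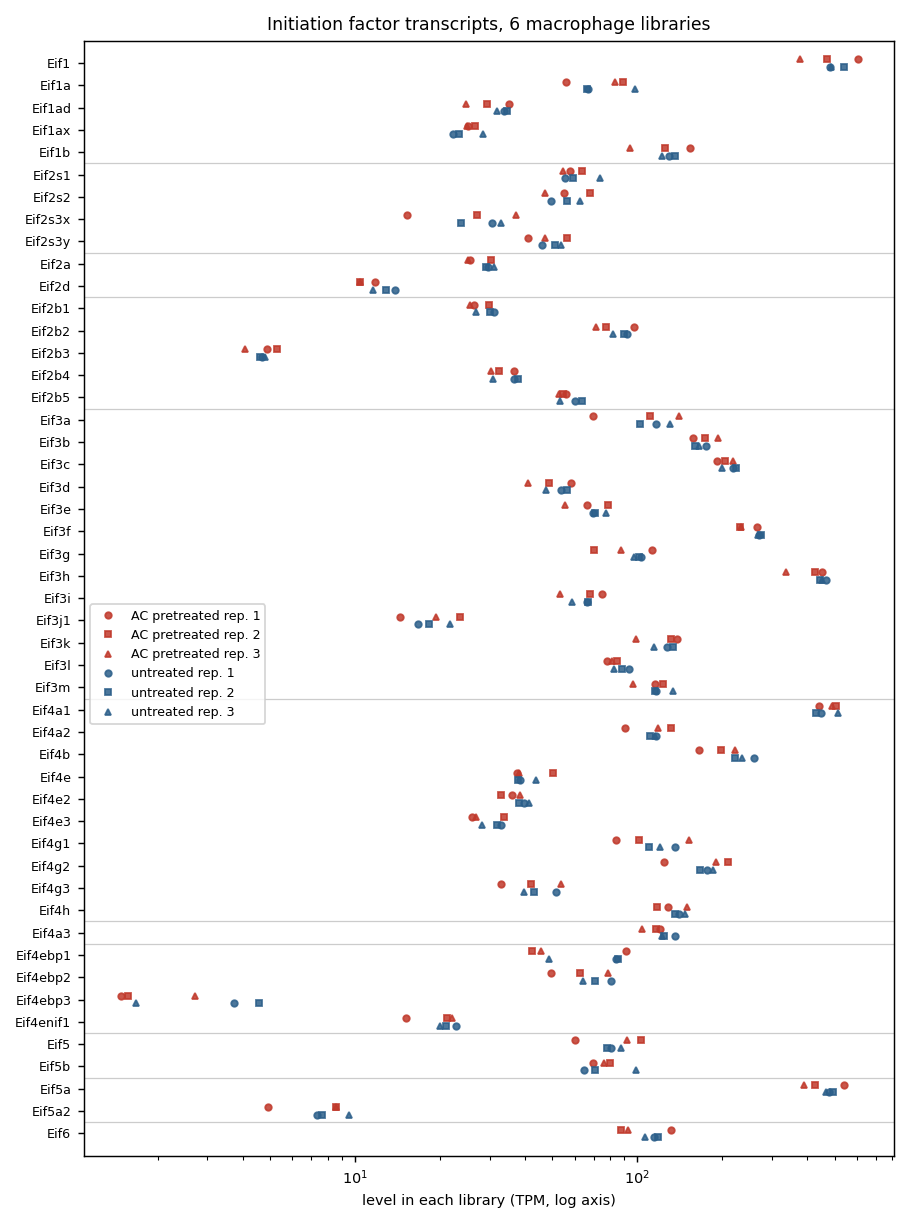
Level of each tested initiation factor gene in the 6 libraries (TPM, log axis), AC pretreated BMDMs in red above untreated BMDMs in blue, with a marker shape for each replicate number. Eif1, Eif4a1, Eif5a and Eif3h are at the top of the range and Eif4ebp3 at the bottom, and red points are spread more widely than blue points for 40 of 49 genes.

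Among the eIF4 genes, the helicase gene Eif4a1 was the most abundant. Eif4a1 had 439, 507 and 489 TPM in AC pretreated BMDMs, against 448, 431 and 515 TPM in untreated BMDMs (log2 difference 0.04 ± 0.14, SE; unadjusted limma p of 0.755). Its paralog Eif4a2 had 90.7, 132 and 119 TPM in AC pretreated BMDMs, against 116, 111 and 115 TPM in untreated BMDMs (log2 difference -0.02 ± 0.16, SE; 95% interval -0.39 to 0.35). Eif4a1 exceeded Eif4a2 by 3.84- to 4.84-fold in AC pretreated BMDMs and by 3.86- to 4.46-fold in untreated BMDMs. Small nucleolar RNA genes and other genes overlap 6.62% of the exon length of Eif4a1 and 13.3% of that of Eif4a2, and the pseudogene Eif4a-ps4 was listed at 9.33 to 21.9 TPM.

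Eif4b, a cofactor that stimulates eIF4A, had the smallest unadjusted p of all members. It had 166, 197 and 222 TPM in AC pretreated BMDMs, against 258, 221 and 236 TPM in untreated BMDMs. AC pretreated replicate 3 was just above untreated replicate 2, and the other 2 AC pretreated libraries were below every untreated one. The means were 195 ± 28.2 and 238 ± 18.8 TPM (SD, n = 3 each, AC pretreated and untreated BMDMs). The log2 difference was -0.30 ± 0.15 (SE; 95% interval -0.64 to 0.05) with an unadjusted limma p of 0.083, which did not pass. It stayed between -0.39 and -0.18 when any 1 library was left out. The other eIF4A cofactor, Eif4h, had 128, 118 and 150.3 TPM in AC pretreated BMDMs, against 140.3, 135 and 147 TPM in untreated BMDMs.

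Eif4e, the cap-binding protein itself, had 37.4, 50.4 and 38.0 TPM in AC pretreated BMDMs, against 38.3, 37.7 and 43.7 TPM in untreated BMDMs. The log2 difference was 0.06 ± 0.16 (SE; unadjusted limma p of 0.726), and only AC pretreated replicate 2 lay above the untreated range. Eif4e2, which encodes the repressive cap-binding protein 4EHP, had 36.0, 32.9 and 38.6 TPM in AC pretreated BMDMs, against 39.8, 38.0 and 41.5 TPM in untreated BMDMs (log2 difference -0.15 ± 0.14, SE; 95% interval -0.46 to 0.16). The ratio of Eif4e2 to Eif4e averaged 0.876 ± 0.196 in AC pretreated BMDMs and 0.998 ± 0.045 in untreated BMDMs (SD, n = 3 each; exact permutation test, 2-sided, p = 0.5).

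The scaffold gene Eif4g1 had 84.3, 101 and 153 TPM in AC pretreated BMDMs, against 135, 110 and 121 TPM in untreated BMDMs. The AC pretreated libraries lay on both sides of all untreated ones (log2 difference -0.15 ± 0.22, SE; 95% interval -0.65 to 0.35). Eif4g2, a relative that lacks the eIF4E-binding part, had 124, 209 and 190 TPM in AC pretreated BMDMs, against 176, 167 and 186 TPM in untreated BMDMs (log2 difference -0.05 ± 0.20, SE; 95% interval -0.50 to 0.41). In the ratio of Eif4g2 to Eif4g1 the AC pretreated libraries had 1.48, 2.06 and 1.24, against 1.30, 1.52 and 1.54 in untreated BMDMs.

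The 4E-binding proteins block cap-dependent initiation until mTORC1 phosphorylates them, and Eif4ebp3 and Eif4ebp1 had the widest intervals of all tested members. All 4 members of this group, with Eif4enif1, the eIF4E transporter, had lower means in AC pretreated BMDMs. Eif4ebp1 had 91.4, 42.4 and 45.8 TPM in AC pretreated BMDMs, against 84.0, 85.3 and 48.7 TPM in untreated BMDMs. AC pretreated replicate 1 and untreated replicates 1 and 2 were high, and the other 3 libraries were low, so the main split among libraries crossed the groups. The log2 difference was -0.32 ± 0.33 (SE; 95% interval -1.07 to 0.43) with an unadjusted limma p of 0.353. It was -0.67 without AC pretreated replicate 1, -0.12 without AC pretreated replicate 2 and -0.17 without AC pretreated replicate 3, and -0.20, -0.18 and -0.58 without untreated replicates 1, 2 and 3. With limma's array weights, which give AC pretreated replicate 1 a weight of 0.181 and untreated replicate 2 a weight of 7.24, it was -0.88 with an adjusted p of 0.042, against adjusted p-values of 0.776 to 1.0 under every other setting.

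Eif4ebp2 had 49.4, 62.9 and 78.6 TPM in AC pretreated BMDMs, against 80.5, 70.6 and 64.2 TPM in untreated BMDMs (log2 difference -0.19 ± 0.19, SE; 95% interval -0.63 to 0.25). The groups overlapped, and the ordering of libraries was unlike that of Eif4ebp1. Eif4ebp3 was the scarcest tested member, with 1.48, 1.57 and 2.71 TPM in AC pretreated BMDMs, against 3.74, 4.59 and 1.68 TPM in untreated BMDMs. These values rest on 8 to 37 reads, and 67.3% of its exon length is shared with another gene. Its log2 difference was -0.53 ± 0.33 (SE; unadjusted limma p of 0.144). The value depended on the settings, at -0.70 with a pseudocount of 0.1, -0.26 with a pseudocount of 5, -0.76 by voom and -0.97 with array weights, and between -0.84 (without untreated replicate 3) and -0.31 (without untreated replicate 2) when 1 library was left out. The 4E-binding protein genes summed to 3.81, 2.12 and 3.34 times Eif4e in AC pretreated BMDMs, against 4.39, 4.26 and 2.62 times in untreated BMDMs (exact permutation test, 2-sided, p = 0.5).

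eIF5 triggers GTP hydrolysis by eIF2, and eIF5B joins the large ribosomal subunit. Eif5 had 59.98, 103 and 92.3 TPM in AC pretreated BMDMs, against 80.7, 78.4 and 87.5 TPM in untreated BMDMs (log2 difference 0.01 ± 0.20, SE; 95% interval -0.45 to 0.48). Eif5b had 69.4, 80.3 and 76.4 TPM in AC pretreated BMDMs, against 64.6, 70.9 and 98.6 TPM in untreated BMDMs (log2 difference -0.03 ± 0.18, SE; 95% interval -0.44 to 0.38). Neither gene separated the groups.

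eIF5A carries the amino acid hypusine and relieves stalled ribosomes. Eif5a had 539.7, 424 and 388 TPM in AC pretreated BMDMs, against 478, 492 and 466 TPM in untreated BMDMs. The AC pretreated libraries again lay on both sides of the untreated ones (log2 difference -0.10 ± 0.15, SE; 95% interval -0.45 to 0.25). Eif5a2, its rarer paralog, had 4.93, 8.54 and 8.58 TPM in AC pretreated BMDMs, against 7.33, 7.66 and 9.53 TPM in untreated BMDMs (log2 difference -0.16 ± 0.24, SE; 95% interval -0.71 to 0.38). Eif6, which keeps free large subunits from joining, had 131, 87.8 and 92.3 TPM in AC pretreated BMDMs, against 114, 118 and 107 TPM in untreated BMDMs (log2 difference -0.15 ± 0.17, SE; 95% interval -0.55 to 0.25).

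Sums were compared for 11 groups of factors. The AC pretreated libraries were all below the untreated ones for eIF3, for eIF2A with eIF2D, and for Eif4a3 with its copies, each with an exact permutation p of 0.1 (2-sided), the smallest that 3 against 3 libraries can give. Adjusted over the 11 groups these were 0.367. With median-of-ratios scaling the groups overlapped for all 11 sums; this alternative was chosen after the data were seen. The eIF4 cap-binding group (eIF4A1, eIF4A2, eIF4B, eIF4E and its relatives, eIF4G and eIF4H) summed to 1165, 1423 and 1479 TPM in AC pretreated BMDMs, against 1437, 1326 and 1472 TPM in untreated BMDMs (exact p = 0.7). Of 12 ratios between paralogs or complexes, every adjusted p was 1.0.

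**Figure D3:**
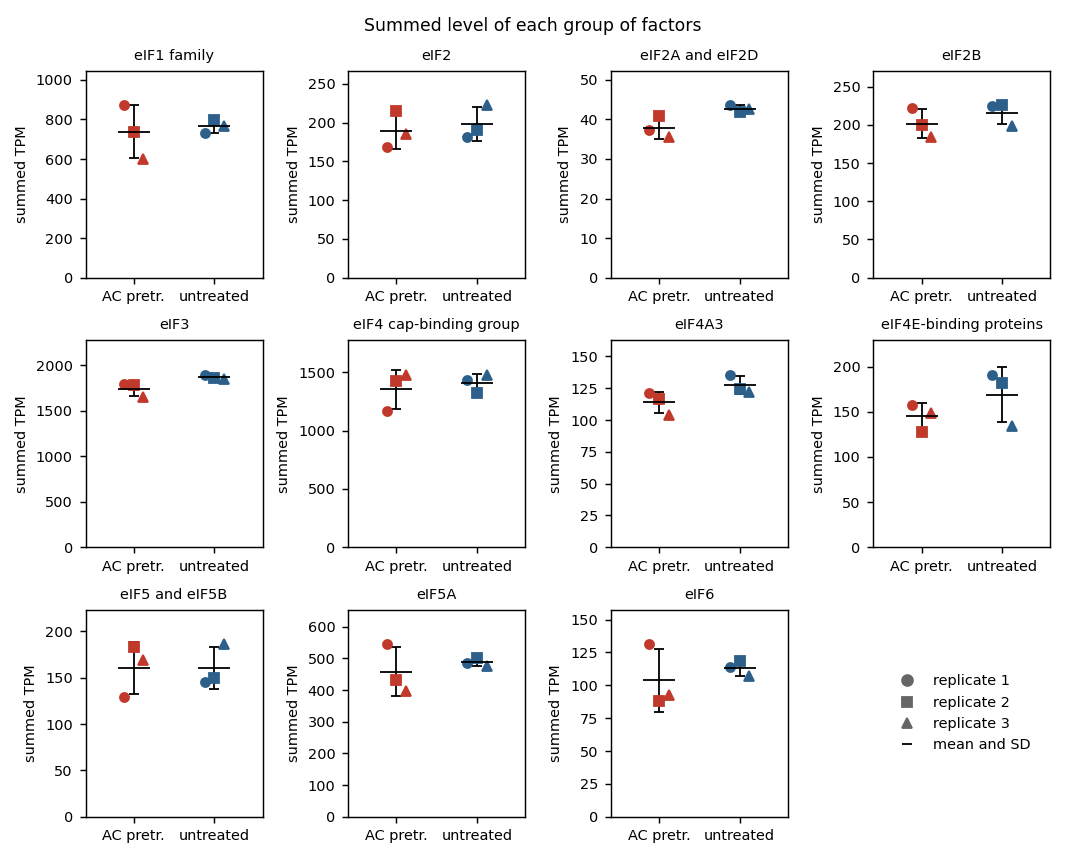
Summed level (TPM) of each of 11 groups of initiation factors in AC pretreated BMDMs (red, left) and untreated BMDMs (blue, right), with 1 point per library and the mean with its SD. Red lies wholly below blue for eIF3, for eIF2A with eIF2D and for eIF4A3, and the groups overlap in the other 8 panels; with median-of-ratios scaling they overlap in all 11.

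The AC pretreated libraries differed from each other more than the untreated libraries did. The median SD of log2 levels over the tested members was 0.243 in AC pretreated BMDMs and 0.110 in untreated BMDMs, and 40 of 49 members (81.6%) had the larger SD in AC pretreated BMDMs, against 73.3% of all genes. AC pretreated replicates 1 and 3 were each the lowest of the 6 libraries for 20 members, AC pretreated replicate 2 for 6, and the untreated libraries for 3 in all. Over all genes, AC pretreated replicate 1 was the lowest for 47.5% and AC pretreated replicate 3 for 19.03%, against 40.8% of members each. AC pretreated replicate 2 was the lowest for 11.9% of all genes, against 12.2% of members. An untreated library was the lowest for 21.5% of all genes, against 6.1% of members. AC pretreated replicate 1 was also the highest library for 11 members (22.4%), against 11.6% of all genes, so it stood at both extremes.

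The gap between AC pretreated replicates 1 and 3 varied with transcript length. Short genes such as Eif1b and Eif1 had higher levels in AC pretreated replicate 1 than in replicate 3, by 0.70 and 0.68 on the log2 scale. Long genes such as Eif3a and Eif4g1 had lower levels there, by -0.99 and -0.85, and Eif2s3x had the lowest difference at -1.23. Across the 49 members, this difference had a Pearson r of -0.64 with the log2 length of the longest coding transcript, and of -0.49 with the merged exon length. The 16 members with the shortest merged exons had a median of 0.40, and the 17 with the longest a median of -0.23. Across 10476 genes tested with a coding length, r was -0.67, so the same trend ran through the whole table. Genes within a library share its depth and preparation and are not independent replicates. The gap between replicates 1 and 3 lies within the AC pretreated group. The part of transcript length in the differences between groups was not tested.

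**Figure D4:**
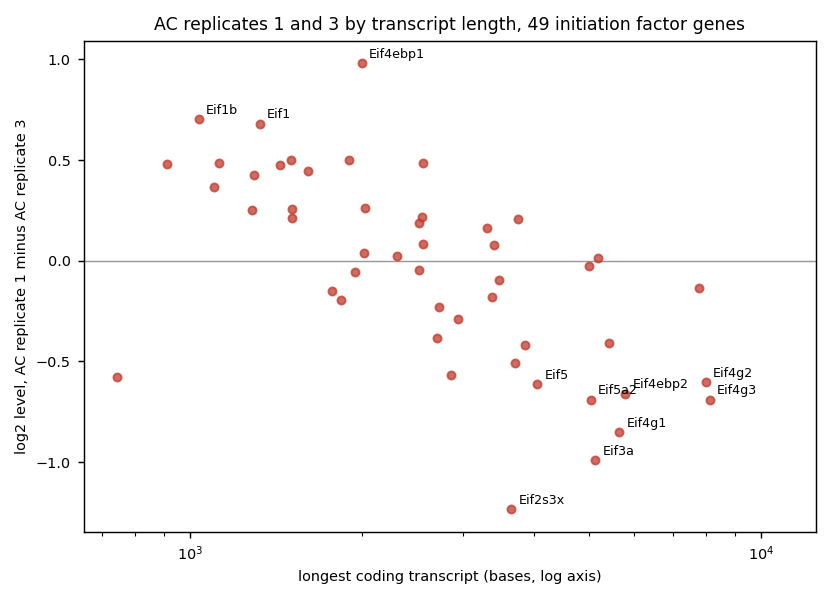
Log2 level in AC pretreated replicate 1 minus that in AC pretreated replicate 3 for the 49 tested initiation factor genes (vertical), against the length of the longest coding transcript in bases (horizontal, log axis). Most short transcripts, such as Eif1b, lie above 0 and most long ones, such as Eif3a, below it (Pearson r of -0.64 across genes), with the shortest, Eif4ebp3, as an exception below 0.

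The genes around initiation were described from fixed lists, in which 0 genes passed, beside 70.6% of all genes with a lower mean and a median log2 difference of -0.07. The list of eIF2 kinases and the integrated stress response, the pathway that phosphorylates eIF2 and induces ATF4, had 14 of 15 genes with lower means in AC pretreated BMDMs, at each of the 3 scalings. Its median log2 difference was -0.15, and moved to -0.088 with median-of-ratios scaling and to -0.12 without Gm23935. Atf3, a stress-induced transcription factor, was the only gene of that list at an unadjusted p under 0.05. Atf3 had 639, 592 and 556 TPM in AC pretreated BMDMs, against 858, 844 and 677 TPM in untreated BMDMs, with no overlap between the groups. With median-of-ratios scaling the groups overlapped, AC pretreated replicate 1 at 742 being above untreated replicate 3 at 683. Its log2 difference was -0.41 ± 0.15 (SE; unadjusted limma p of 0.023), and it did not pass the adjustment. Atf4 itself had 314, 259.9 and 218 TPM in AC pretreated BMDMs, against 314, 340.1 and 229.7 TPM in untreated BMDMs. Ppp1r15a, the phosphatase subunit that reverses eIF2 phosphorylation, had 23.9, 15.9 and 18.7 TPM in AC pretreated BMDMs, against 28.5, 24.3 and 19.6 TPM in untreated BMDMs. Eif2ak4, which encodes the amino acid sensor GCN2, was the gene of the list with a higher mean, by 0.07 ± 0.23 (SE) on the log2 scale.

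The library order seen in Eif4ebp1, with AC pretreated replicate 1 and untreated replicates 1 and 2 above the other 3 libraries, was also found in 7 of the 15 stress response genes. These were Asns, Atf4, Chac1, Ddit3, Ppp1r15a, Sesn2 and Trib3, of which Atf4 is the transcription factor and most of the others are known targets of it. Trib3 had 21.2, 5.31 and 7.38 TPM in AC pretreated BMDMs, against 16.2, 21.1 and 9.06 TPM in untreated BMDMs. Chac1 had 7.34, 0.984 and 1.14 TPM in AC pretreated BMDMs, against 4.67, 4.91 and 0.383 TPM in untreated BMDMs. The same order held in 11 of 49 members (22.4%) and in 11.1% of all genes tested. It was chosen after the values of Eif4ebp1 were seen and is a description of these 6 libraries. The libraries high in this order were also those with a negative r with merged exon length across the members (-0.47, -0.35 and -0.63). Over all tested genes with a length, r was -0.25 for AC pretreated replicate 1, and -0.0094 and -0.10 for untreated replicates 1 and 2. With the length of the longest coding transcript, these were -0.66, 0.18 and -0.23, so untreated replicate 1 did not keep the negative sign. Whether ATF4 or transcript length has a part in the order was not tested.

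**Figure D5:**
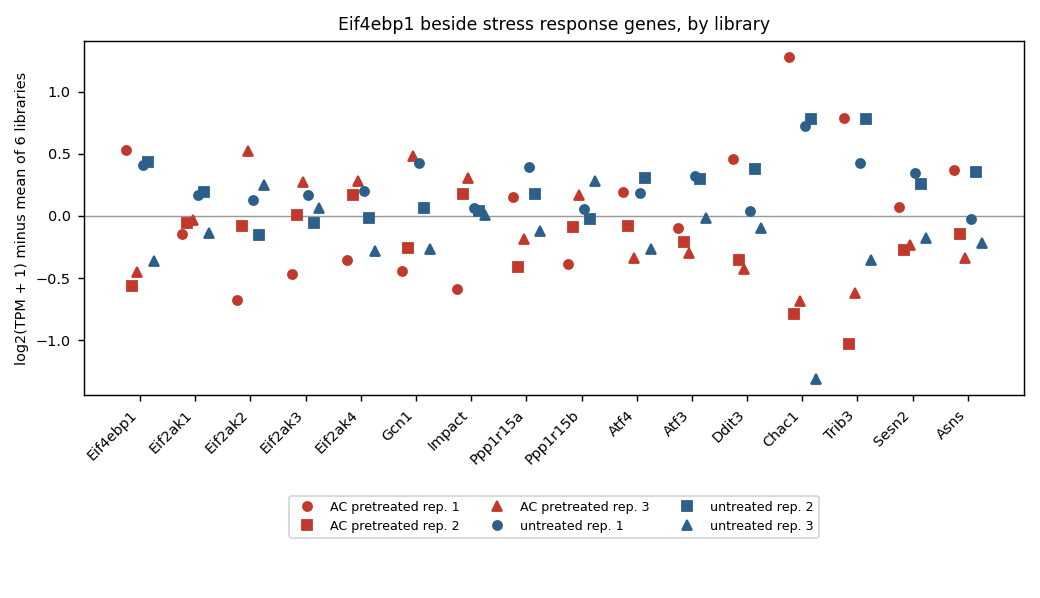
Level of Eif4ebp1 and of the 15 genes of the eIF2 kinase and stress response list in each library, as log2(TPM + 1) minus the mean of the 6 libraries, AC pretreated BMDMs in red and untreated BMDMs in blue. AC pretreated replicate 1 stands with untreated replicates 1 and 2 above the other 3 libraries for Eif4ebp1, Trib3 and Chac1, and at this scaling the groups separate for Atf3 alone; with median-of-ratios scaling they overlap for Atf3 too.

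The list of mTORC1 and MNK control covers the kinases that act on the 4E-binding proteins and eIF4E, with their activators, inhibitors and substrates. It had 14 of 17 genes with lower means (11 with median-of-ratios scaling) and a median log2 difference of -0.11. Mtor had 8.01, 10.6 and 14.9 TPM in AC pretreated BMDMs, against 15.7, 11.9 and 10.9 TPM in untreated BMDMs. Rps6, the ribosomal protein that S6 kinase phosphorylates, had 821, 675 and 673 TPM in AC pretreated BMDMs, against 824, 826 and 857 TPM in untreated BMDMs (log2 difference -0.21 ± 0.14, SE; unadjusted limma p of 0.153). Its groups did not overlap, but AC pretreated replicate 1 was within 3 TPM of the untreated range and was above it with median-of-ratios scaling. Pdcd4 and Ppm1g were also lower without overlap when libraries were scaled to the same sum, as were 3.48% of all genes. Rps6kb1, the S6 kinase, had the smallest p on the higher side (log2 difference 0.10 ± 0.19, SE).

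Of the genes for poly(A)-binding and mRNA circularisation, 8 of 10 had lower means (median -0.08; 6 of 10 with median-of-ratios scaling). Pabpc1, the poly(A)-binding protein that contacts eIF4G, had 289, 364 and 317 TPM in AC pretreated BMDMs, against 372, 357 and 357 TPM in untreated BMDMs. Of the scanning, reinitiation and 4EHP partner genes, 8 of 12 had lower means (median -0.02; 4 of 12 with median-of-ratios scaling, where the median turned to 0.04), with Denr, a reinitiation factor, at -0.22 ± 0.15 and Bzw2, an eIF5 mimic, at 0.24 ± 0.21 on the log2 scale (SE). Of the elongation factor genes, 9 of 11 tested had lower means (median -0.07; 6 of 11 with median-of-ratios scaling). Eef2, the translocase of elongation, had 1671, 1664 and 1835 TPM in AC pretreated BMDMs, against 2419, 2040 and 1808 TPM in untreated BMDMs (log2 difference -0.27 ± 0.15, SE; unadjusted limma p of 0.120). Eef1a1, which delivers aminoacyl-tRNA, had 7596, 8876 and 7302 TPM in AC pretreated BMDMs, against 8901, 8498 and 8415 TPM in untreated BMDMs. Of the termination and recycling genes, 4 of 6 had lower means (median -0.01; 0 of 6 with median-of-ratios scaling, where the median turned to 0.04). Of the sex-linked genes tested, 4 of 6 had lower means (median -0.05; 3 of 6 with median-of-ratios scaling, where the median turned to 0.01).

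The list around polyamines and hypusine, the modification eIF5A depends on, mixes genes that raise and genes that limit polyamine levels. It had 7 of 9 higher means, with a median log2 difference of 0.03. Oaz1 and Sat1, which limit polyamines, were among the higher genes, and Amd1 and Azin1 were the lower ones. There were 8 higher means with a median of 0.10 under median-of-ratios scaling, and 8 with a median of 0.065 without Gm23935. Odc1, the first enzyme of polyamine synthesis, had 39.2, 48.1 and 34.0 TPM in AC pretreated BMDMs, against 38.4, 36.7 and 35.5 TPM in untreated BMDMs. Its log2 difference was 0.12 ± 0.16 (SE; unadjusted limma p of 0.488). Dhps, which makes hypusine on eIF5A, had 32.3, 33.7 and 28.7 TPM in AC pretreated BMDMs, against 32.6, 30.4 and 30.6 TPM in untreated BMDMs.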

How the data were processed

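The deposited table holds, for 55291 genes in 6 libraries, a signal that its name calls TPM. Per the submitters' processing notes, the build was mm10, and featureCounts 2.0.3 (with Subread) and STAR 2.7.10a were among the tools. Annotation, strand setting and handling of multi-gene reads: not given in the sources used here. Values of overlapping or near-identical genes are therefore uncertain. The deposited signal columns summed to 54732 to 92831, not to 1000000. When the deposited signal was taken times gene length (merged exons, GENCODE mouse release 21) over 8.57, whole reads resulted in all libraries for 23473 of 23829 genes (98.5%, tolerance 0.02 reads). The deposited signal is thus reads per exon base, unscaled for library size, and each column was rescaled to sum to 1000000, the planned test being kept. Lengths and coordinates are those of GENCODE, and promoters those of RefSeq (GRCm38.p6).

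The test was limma 3.58.1 (R 4.3.3; lmFit, eBayes with trend) on log2(TPM + 1), which understates changes of low genes, 2-sided, with Benjamini-Hochberg adjustment over 12603 genes. It was tested on simulated data in which genes varied independently and both groups had the same SD, unlike the libraries here. Sums and ratios used exact permutation tests over libraries, whose smallest p is 0.1. Figures were drawn with matplotlib 3.10.9, and tables handled with numpy 2.4.6 and pandas 2.3.3 under Python 3.11.15, with scipy 1.17.1 for exact tests. Members and lists were chosen with earlier results of these data known. Full statistics are given for the 4 members with the smallest p in each direction and a fixed set of 25, and for each related list the gene with the smallest p in each direction plus 6 fixed genes; other genes named with values, among them Eif3f, Eif3h, Eif4h, Trib3, Chac1 and Dhps, were chosen after their values were seen. Alternatives changed the pseudocount, filter, scaling or variance model, used voom on recovered reads or a replicate block, or left out libraries.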

Additional observations from a re-analysis of the deposited data

How the results depend on the processing

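The count of 0 members passing held under every alternative except array weights, where 1 member (Eif4ebp1) passed with 276 genes of the table (3475 at an unadjusted p under 0.05), and limma without a trend passed 1 gene and 0 members. The members' median of -0.10 moved to -0.037 with median-of-ratios scaling and to -0.045 with array weights, where 28 of 49 means were lower, and lay between -0.135 and -0.063 when 1 library was left out. Relative to the median of all genes it was -0.033, and turned to 0.044 without AC pretreated replicate 3 and to 0.048 without replicate 3 of both groups. The count of lower members whose groups did not overlap fell to 1 with median-of-ratios scaling, against 2. The share over all genes fell to 1.94%, against 3.48%. The replicate block left 0 genes and 0 members passing, with 225 genes at an unadjusted p under 0.05, against 164 without it. Same-numbered libraries did not all deviate together (correlations of -0.060, 0.0098 and 0.167), and not every library correlated best with its own number. With 3 libraries per group, these correlations cannot decide whether same-numbered libraries were prepared together. The summed placental and erythroid markers were highest in replicate 2 and lowest in replicate 3 of both groups. Voom on recovered reads passed 0 of 12202 genes, with 97 at an unadjusted p under 0.05.

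The differences of many members were too small for their sign to hold, and the cause was not tested. With median-of-ratios scaling the log2 difference turned to 0.039 for Eif1a, 0.0092 for Eif3c, 0.062 for Eif3j1, 0.027 for Eif3k, 0.046 for Eif4a2, 0.020 for Eif4g2 and 0.039 for Eif5b. Rescaled without Gm23935 it turned to 0.0038 for Eif1a, 0.028 for Eif3j1, 0.010 for Eif4a2 and 0.0033 for Eif5b. With array weights it turned to 0.33 for Eif1a, 0.0086 for Eif2a, 0.063 for Eif2s1, 0.12 for Eif2s3x, 0.10 for Eif2s3y, 0.081 for Eif3a, 0.079 for Eif3e, -0.0020 for Eif3i, 0.29 for Eif3j1, 0.036 for Eif3m, 0.19 for Eif4a2, 0.033 for Eif4e3, 0.25 for Eif4g2, 0.096 for Eif5a2 and 0.15 for Eif5b. By voom it turned to 0.015 for Eif1a, 0.037 for Eif3j1, 0.00021 for Eif3k, 0.019 for Eif4a2 and 0.014 for Eif5b. With a pseudocount of 5 it turned to 0.00028 for Eif3j1. Without replicate 3 of both groups it turned to 0.063 for Eif1, 0.075 for Eif1a, 0.067 for Eif1b, 0.077 for Eif2s1, -0.019 for Eif3b, 0.042 for Eif3e, 0.073 for Eif3j1, 0.045 for Eif3k, 0.041 for Eif3m, -0.018 for Eif5 and 0.14 for Eif5b. For summed levels, median-of-ratios scaling turned the log2 ratio of the means to 0.037 for eIF1 family, 0.0026 for eIF4 cap-binding group and 0.0042 for eIF5A.

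When 1 library was left out, the log2 difference had these ranges in the eIF1 and eIF2 genes that changed sign: -0.25 to 0.086 for Eif1, -0.16 to 0.18 for Eif1a, -0.0074 to 0.16 for Eif1ax, -0.25 to 0.11 for Eif1b, -0.063 to 0.093 for Eif2b3, -0.17 to 0.027 for Eif2s1, -0.13 to 0.13 for Eif2s2, -0.48 to 0.14 for Eif2s3x and -0.19 to 0.039 for Eif2s3y. In the eIF3 genes that did so, or that did so without replicate 3 of both groups, it ran from -0.39 to 0.11 for Eif3a, -0.013 to 0.13 for Eif3b, -0.23 to 0.025 for Eif3d, -0.26 to -0.0051 for Eif3e, -0.085 to 0.16 for Eif3i, -0.16 to 0.18 for Eif3j1, -0.13 to 0.11 for Eif3k and -0.20 to -0.027 for Eif3m. In the other factor genes it ran from -0.0084 to 0.12 for Eif4a1, -0.14 to 0.13 for Eif4a2, -0.077 to 0.13 for Eif4e, -0.23 to 0.022 for Eif4enif1, -0.39 to 0.033 for Eif4g1, -0.20 to 0.18 for Eif4g2, -0.25 to 0.093 for Eif4g3, -0.14 to 0.24 for Eif5, -0.28 to 0.067 for Eif5a2 and -0.15 to 0.15 for Eif5b. Of the 49 members, 47 had a difference that moved by over 1.5 times when 1 library was left out, Eif2d and Eif3f being the exceptions; without a change of sign it ran from -0.35 to -0.024 for Eif4ebp2, -0.24 to -0.00016 for Eif5a and -0.33 to -0.038 for Eif6. In the ratios it ran from -0.19 to 0.11 for Eif1a over Eif1ax, -0.031 to 0.031 for Eif1b over Eif1, -0.100 to 0.44 for Eif2s3y over Eif2s3x, -0.028 to 0.14 for Eif4a1 over Eif4a2, -0.65 to 0.18 for Eif4ebp1 over Eif4ebp2, -0.098 to 0.27 for Eif4g2 over Eif4g1, -0.32 to 0.31 for Eif5a2 over Eif5a and -0.19 to 0.062 for eIF2B summed over eIF2 summed. In the summed levels the log2 ratio of the means ran from -0.19 to 0.074 for eIF1 family, -0.16 to 0.031 for eIF2, -0.13 to 0.040 for eIF4 cap-binding group, -0.10 to 0.13 for eIF5 and eIF5B and -0.23 to 0.0054 for eIF5A. Low members are limited by depth: Eif4ebp3 rested on 8 to 37 reads.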
